A study of Mus musculus with 25 samples.

Results

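The tubulin isotypes described here were 6 alpha tubulin genes (Tuba1a, Tuba1b, Tuba3a, Tuba3b, Tuba4a and Tuba8) and 4 beta tubulin genes (Tubb3, Tubb4b, Tubb5 and Tubb6) of the mouse. They were taken by gene symbol, with earlier results of these data known. All 10 were found among the 29,244 gene symbols of 25 Drop-seq libraries of the testis. Drop-seq captures single cells in droplets and counts unique molecular identifiers (UMIs) at the 3′ ends of transcripts. Together the 10 genes held 238,216 of 65,063,387 UMIs, which is 0.366%, and 74.1% of these came from the alpha genes. Each gene had a UMI in 23 to 25 of the 25 libraries.

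Microtubules are polymers of alpha and beta tubulin pairs, and mammals encode each partner in several genes called isotypes. In the testis they build the meiotic spindles, the manchette that shapes the spermatid head, the axoneme of the sperm tail and the bundles that run along Sertoli cells. The isotypes differ mostly at their acidic tails, where enzymes add or remove tyrosine, glutamate and glycine. Tuba3a and Tuba3b are known as testis isotypes, Tuba1a and Tubb3 as neuronal isotypes, Tuba1b and Tubb5 as widely used isotypes of dividing cells, and Tubb4b as the major beta isotype of cilia and flagella.

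The study compared whole testis of wild-type mice with that of infertile strains. The 11 WT libraries came from C57BL/6 males aged 3 months 1 day to 9 months 14 days. The 6 Mlh3 libraries came from Mlh3-/- males aged 2 months 21 days to 8 months 30 days, and the 2 Cul4a libraries from Cul4a-/- males aged 1 month 18 days and 1 month 21 days, all on a B6;129 background. The 2 CNP libraries came from C57BL/6 males carrying the transgene labelled CNP eGFP BAC TRAP, aged 2 months 14 days and 2 months 16 days. Strains, genotypes and ages are given as the labels have them, and other sources of the study differ in places. Its methods have C57BL/6J in place of C57BL/6, a B6.129 line for Mlh3, and a B6;CBA line for the Pou5f1-EGFP reporter, and its sample list has the ages of the Cul4a and CNP animals exchanged. Mlh3 2 and Mlh3 3 have the same age in the labels, and whether they come from 1 animal is not stated. Background and genotype cannot be told apart for Mlh3 and Cul4a, since no wild-type B6;129 library was analysed. By the labels, all Cul4a and CNP animals were younger than every WT animal. Age and strain therefore cannot be told apart in their comparisons with WT. There were also 4 sorted C57BL/6 libraries with no replicate: spermatogonia from 5 pooled Pou5f1-EGFP litter mates (spelled Pouf51-EGFP in the labels) aged 7 days, and primary spermatocytes, secondary spermatocytes and spermatids sorted by DNA stain from wild type aged 2 months 21 days. WT 1, WT 2 and the sorted spermatogonia were dissociated with enzymes and the others mechanically. WT 1, WT 3, Mlh3 1, Mlh3 2 and the 3 sorted libraries other than spermatogonia were sequenced on a MiSeq and the rest on a HiSeq.

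The whole-testis libraries held 357,235 to 9,745,302 UMIs each in 47,450 barcodes, and the sorted ones 107,117 to 1,168,498 UMIs. Of 48,081 distinct barcodes, 430 occurred in more than 1 library, at most 27 in any pair. Cells were clustered without any tubulin gene, and clusters were named from marker genes as classes such as pachytene-like, so that tubulin levels took no part in clusters or markers. A name also required a number of leading genes, and these could include tubulins. The WT cells named were 28 spermatogonia-like, 264 leptotene/zygotene-like, 716 pachytene-like, 2774 division-like, 1953 round spermatid-like, 3760 elongating spermatid-like, 102 Sertoli-like and 43 Leydig-like, with 55 erythroid-like, 22 telocyte-like and 7 macrophage-like cells besides, while 15,328 WT cells stayed unnamed and 1071 had not passed the filters. Division-like cells were named from genes that the study lists for diplotene and the meiotic divisions together. The class may therefore hold diplotene spermatocytes as well as dividing cells. The suffix is left out below. Summed over whole libraries, Mlh3 and Cul4a transcripts were not lower in the strains named for them. Cul4a stood at 49.0 and 54.5 CPM (counts per 1e6 UMIs) in the Cul4a libraries against 5.6 to 45.7 in WT. Mlh3 stood at 26.2 to 86.5 CPM in the Mlh3 libraries against 10.7 to 72.9 in WT. Cul4a also ran from 109 to 180 CPM in the Mlh3 libraries, and the part of the cell mix in these sums was not tested. The study, comparing clustered wild-type and mutant cells, reports that Mlh3 itself was differentially expressed in Mlh3-/- cells. Which part of each gene is deleted is not given in the sources used here, so these 3′ tags do not check the labels, and strain names below stand for the labels. Mlh3 libraries held no named spermatid and 41 division cells against 1083 pachytene cells. Cul4a cells lay largely in clusters with few WT cells: 556 of the 583 Cul4a division cells shared a cluster with 1 WT cell. Of the sorted libraries, the one labelled primary spermatocytes had 158 of its 199 barcodes in a cluster led by hemoglobin genes and 23 in pachytene clusters. The one labelled secondary spermatocytes had 244 of its 398 barcodes removed by the filters, and 76 in elongating, 39 in round and 19 in division clusters. Levels of the sorted libraries below are sums over all their barcodes, with those removed by the filters.

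All 10 members are protein-coding genes. In GRCm38, the build of the files, Tuba3a lies on the minus strand at chr6:125278274-125286042, Tuba8 on the plus strand at chr6:121210696-121226854 and Tuba3b on the plus strand at chr6:145615757-145621479. Tuba1b (chr15:98931425-98934565) and Tuba1a (chr15:98949837-98953703) are neighbours on the minus strand, and Tuba4a (chr1:75214228-75219865) is on the minus strand as well. Among the beta genes, Tubb4b (chr2:25222160-25224702) and Tubb5 (chr17:35833921-35838306) lie on the minus strand, and Tubb3 (chr8:123411424-123422015) on the plus strand. The position of Tubb6 is given with its values.

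The ends of the reading frames are shown because they encode the tails by which isotypes differ. In Tuba3a, Tuba3b and Tubb4b they lie 84, 92 and 148 bases before the annotated transcript end. In Tuba8, Tubb5 and Tuba4a they lie 775, 1061 and 1394 bases before it. Each is given 5′ to 3′ in the last exon of its gene, with the last codon before the stop in capitals. They come from the GRCm38 genome and annotation.
Tuba3a, chr6:125278358-125278420, minus strand: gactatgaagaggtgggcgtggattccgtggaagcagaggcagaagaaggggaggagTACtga
Tuba3b, chr6:145621325-145621387, plus strand: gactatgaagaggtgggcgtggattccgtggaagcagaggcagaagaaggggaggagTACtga
Tuba4a, chr1:75215622-75215684, minus strand: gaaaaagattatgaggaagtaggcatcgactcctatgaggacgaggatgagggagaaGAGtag
Tuba8, chr6:121226017-121226079, plus strand: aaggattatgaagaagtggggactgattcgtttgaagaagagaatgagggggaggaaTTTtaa
Tubb4b, chr2:25222308-25222370, minus strand: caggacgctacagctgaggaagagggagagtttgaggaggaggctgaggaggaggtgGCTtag
Tubb5, chr17:35834982-35835044, minus strand: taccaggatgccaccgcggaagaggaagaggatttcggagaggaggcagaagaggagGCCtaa
The Tuba3a and Tuba3b ends are the same 63 letters and close with TAC, as do those of Tuba1a and Tuba1b. Tuba8 closes with TTT and Tuba4a with GAG. In the genetic code TAC stands for tyrosine, the residue that the tyrosination cycle of alpha tubulin removes and restores, and TTT and GAG do not.

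The near-identity limits what the counts can separate. The coding sequences of Tuba3a and Tuba3b are 96.96% identical (41 of 1350 positions differ) and those of Tuba1a and Tuba1b 98.3% identical (23 of 1353 differ). In the last 500 bases of the transcript, where 3′ reads fall, words of 50 bases were compared among transcripts of genes named Tuba or Tubb only. Words also found in another of these made up 36.4% for Tuba3a and for Tuba3b, 54.8% for Tuba1a and 51.4% for Tuba1b. They made up 24.6% for Tubb4b (mostly in the pseudogene Tubb4b-ps1) and 0 for Tuba4a, Tuba8, Tubb3, Tubb5 and Tubb6. Levels of a gene within such a pair are therefore uncertain, and their sum is firmer. Whether counting used strand is not given in the sources used here, and Tuba4a, Tuba8, Tubb4b, Tuba1b and Tuba3a overlap a gene on the other strand. Tuba1a and Tuba1b also overlap Gm49450, and Tubb3 overlaps Gm20388, both protein-coding on the same strand, so reads of these genes cannot be separated with certainty by strand either.

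In WT, the alpha isotypes changed over along the germ line. Tuba3a and Tuba3b carried nearly all alpha tubulin UMIs in pachytene cells and fell at each later step, while Tuba8 and Tuba4a rose in round and again in elongating spermatids. The levels of each library, as CPM of the class, are shown in the plot of 6 isotypes over 5 classes.

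**Figure D1:**
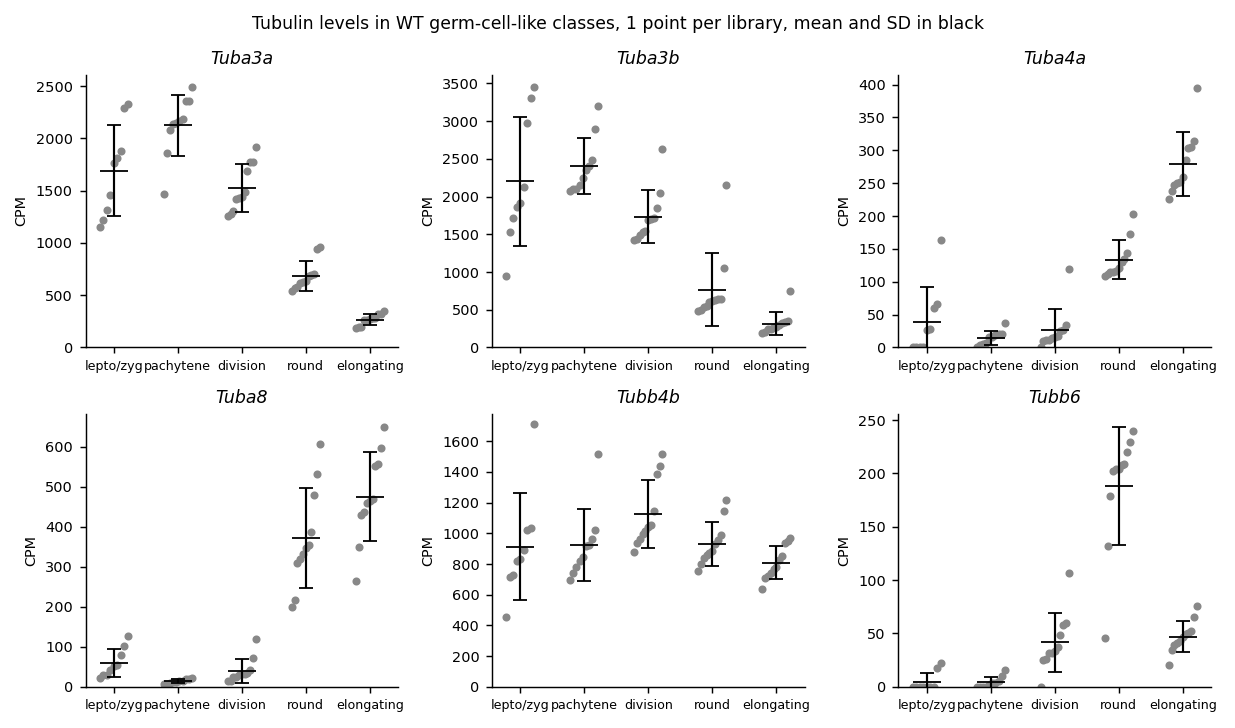
Levels of Tuba3a, Tuba3b, Tuba4a, Tuba8, Tubb4b and Tubb6 in CPM (vertical axis) in 5 germ cell classes of WT (horizontal axis). Each point is 1 library holding 10 or more such cells, and bars are means with SD. Tuba3a falls from 2125 CPM in pachytene cells to 266 CPM in elongating spermatids while Tuba8 goes from 13.7 to 475 CPM.

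Tuba3a ran from 1464 to 2496 CPM (median 2159) in pachytene cells of 10 WT libraries and from 1257 to 1916 (median 1439) in division cells of 11. It ran from 537 to 964 CPM (median 637) in round spermatids and from 189 to 345 (median 272) in elongating spermatids. Every library was lower than at the step before, and the ranges of division, round and elongating cells did not overlap with each other. The fitted log2 fold changes were -0.49 (SE 0.07, edgeR quasi-likelihood adjusted p = 3.07e-11), -0.86 (SE 0.07, adjusted p = 2.73e-30) and -0.94 (SE 0.09, adjusted p = 2.62e-26) for division against pachytene, round against division and elongating against round. With scaling factors taken over all genes the first step was -0.10 and was not called.

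Tuba3b moved with its near-identical partner. It ran from 2077 to 3196 CPM (median 2298) in pachytene, from 1426 to 2633 (median 1695) in division, from 488 to 2154 (median 617) in round and from 191 to 751 (median 269) in elongating cells, and it was lower in all libraries at each step. Its log2 changes were -0.59 (SE 0.07, edgeR adjusted p = 9.13e-16), -1.0 (SE 0.07, adjusted p = 9.01e-41) and -0.84 (SE 0.09, adjusted p = 1.35e-21). The highest value in the last 3 classes was that of WT 1, a library of 102 barcodes. There Tuba3b made up 69.1% of the Tuba3a and Tuba3b UMIs of round spermatids, against a median of 48.5% over the 11 WT libraries.

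Tuba8, a divergent alpha isotype, was low up to the divisions and high in spermatids. It ran from 7.67 to 22.9 CPM (median 12.2) in pachytene cells, from 13.5 to 119.7 (median 30.8) in division cells, from 198 to 607 (median 346) in round spermatids and from 264 to 650 (median 465) in elongating spermatids. No round spermatid value overlapped the division values, whereas the round and elongating ranges overlapped, although every library was higher in elongating cells. A cluster of 806 cells with Tuba8 among its leading genes was named elongating on a near tie. Its marker score was 0.884 for elongating and 0.798 for round spermatids. The part of this naming in the last Tuba8 step was not tested separately. Log2 changes were 1.17 (SE 0.28, edgeR adjusted p = 0.000123), 4.03 (SE 0.12, adjusted p = 1.17e-229) and 0.77 (SE 0.08, adjusted p = 9.57e-20).

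Tuba4a, a widely expressed alpha isotype, was high in spermatids. It ran from 0 to 36.6 CPM in pachytene cells and from 0 to 119.7 (median 15.9) in division cells, which did not differ past the threshold (log2 0.71, SE 0.31, edgeR adjusted p = 0.0543). In round spermatids it ran from 108 to 202 CPM (median 121) and in elongating spermatids from 226 to 395 (median 259), with no overlap between these ranges. The log2 changes were 3.20 (SE 0.16, adjusted p = 4.22e-91) and 1.45 (SE 0.10, adjusted p = 4.30e-47).

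Tubb4b was the main beta isotype of all 4 classes. It ran from 693 to 1518 CPM (median 882) in pachytene, from 878 to 1517 (median 1039) in division, from 754 to 1216 (median 883) in round and from 636 to 973 (median 781) in elongating cells, and all these ranges overlapped. Division was above pachytene by a log2 of 0.21 (SE 0.08, edgeR adjusted p = 0.0149). No direction can be given for Tubb4b at the later steps: elongating against round was 0.19 (SE 0.07, adjusted p = 0.0313) with the scaling factors used, but -0.21 with library totals, and its CPM was lower in 11 of 11 libraries.

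Tubb6 (chr18:67390717-67402749, plus strand), a minor beta isotype in most tissues, had a peak in round spermatids. It ran from 0 to 16.0 CPM (median 2.63) in pachytene, from 0 to 106.8 (median 33.8) in division, from 45.7 to 239 (median 204.5) in round and from 20.3 to 75.4 (median 46.4) in elongating cells. Its value was higher in round than in division cells in 11 of 11 libraries and lower in elongating than in round cells in 11 of 11. Log2 changes were 3.02 (SE 0.33, edgeR adjusted p = 2.20e-18), 2.81 (SE 0.13, adjusted p = 6.54e-107) and -1.65 (SE 0.13, adjusted p = 6.62e-36).

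Tuba1a, Tuba1b, Tubb3 and Tubb5 were scarce in WT germ cells from pachytene on, with class means of 0.905 to 11.4 CPM. At the last step Tuba1a rose from a mean of 1.36 to 6.49 CPM (log2 2.21, SE 0.55, edgeR adjusted p = 0.000263). Tubb5 rose from 2.62 to 7.09 CPM (log2 1.95, SE 0.51, adjusted p = 0.000581) and Tubb3 from 3.01 to 11.3 CPM (log2 2.16, SE 0.42, adjusted p = 1.37e-06). Tuba1b, at 5.57 and 6.67 CPM, passed narrowly (log2 1.0, SE 0.42, adjusted p = 0.0498) and did not pass without WT 3, 7, 8, 9, 10 or 11. These rest on few molecules, for Tuba1a on 8 UMIs in all round and 27 in all elongating cells of WT.

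In counts of members, 3 of 10 were higher and 2 lower in division than in pachytene cells, while 19.3% of the 17,718 genes tested were higher and 21.9% lower. At round against division 4 were higher and 2 lower (24.2% and 20.5% of all genes), the fourth being Tubb3 (log2 1.61, SE 0.62, adjusted p = 0.0223, lost without WT 4, 7, 9 or 11). At elongating against round 7 were higher and 3 lower (13.8% and 20.8%, 34.6% in either direction), or 3 and 3 where edgeR's own filter left out scarce genes, or 5 and 4 with library totals, where Tubb4b turned lower and Tuba1b was not called. The median log2 change over the 10 members was -0.12, 0.15 and 0.88 at the 3 steps, against -0.02, 0.03 and -0.12 over all genes. Scaling moves these shares. With library totals the medians of all genes shifted by -0.33 and -0.34 at the last 2 steps, and 39.3% of calls were higher at round against division in place of 54.2%, and 21.8% in place of 39.9% at elongating against round. With factors over all genes 69.3% of calls were higher at division against pachytene in place of 46.8%, with a shift of 0.32. The calls of Tuba8, Tubb6, Tuba3a and Tuba3b at the last 2 steps, and of Tuba4a there, kept their direction and stayed past the threshold under each scaling.

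The share of an isotype within its own family does not depend on how classes are scaled. The stacked plot of mean shares shows the change in alpha and the peak of Tubb6 in beta.

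**Figure D2:**
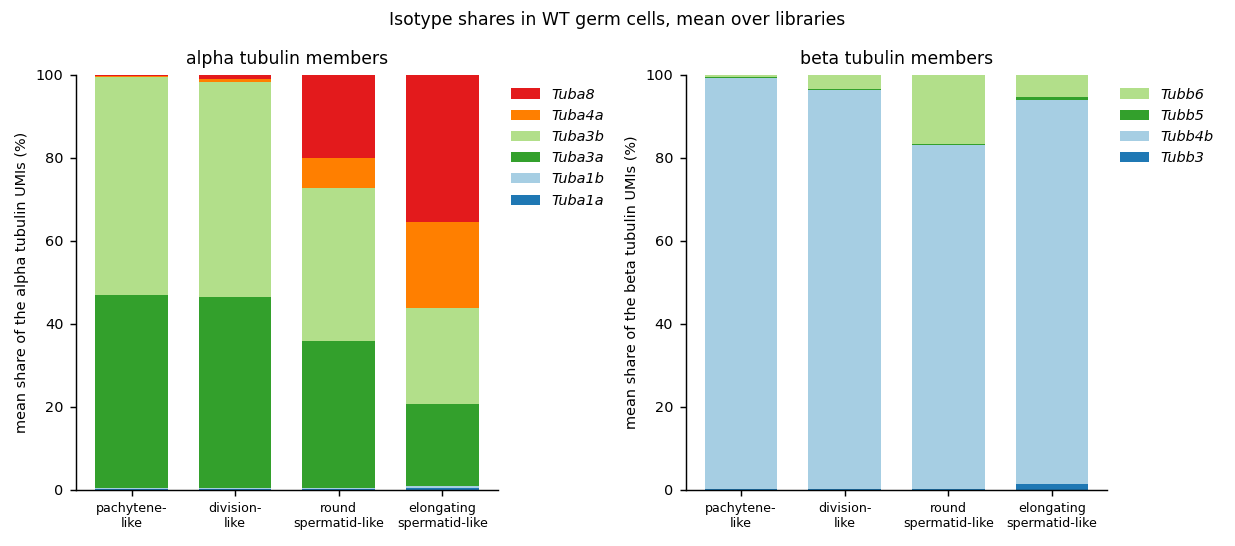
Mean share in percent (vertical axis) of each member in the alpha (left) or beta (right) tubulin UMIs of WT libraries, for pachytene, division, round and elongating cells (horizontal axis). Tuba8 makes up 0.308, 1.15, 20.2 and 35.5% of alpha UMIs and Tubb6 0.494, 3.50, 16.8 and 5.32% of beta UMIs in that order.

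Tuba3a and Tuba3b together fell from 46.5% and 52.5% of alpha UMIs in pachytene cells to 35.6% and 36.8% in round and 19.7% and 22.9% in elongating spermatids. Tuba8 rose from 1.15% ± 0.751 (SD, n = 11) in division to 20.2% ± 7.20 in round and 35.5% ± 7.67 in elongating cells, and Tuba4a from 0.722% ± 0.773 to 7.14% ± 1.82 and 20.8% ± 2.45. Tubb4b held 99.1% of beta UMIs in pachytene, 96.2% in division, 82.7% in round and 92.6% in elongating cells, and Tubb6 took up most of the difference. Each of these 6 shares moved the same way in 11 of 11 libraries at both later steps (exact sign-flip permutation test, two-sided, p = 0.000977, the smallest that 11 pairs can give). From pachytene to division, Tuba8 rose to 0.973% and Tubb6 to 3.85% in 10 of 10 libraries and Tubb4b fell in 10 of 10 (exact sign-flip permutation test, p = 0.00195, the smallest possible), and Tuba3b fell in 9 of 10 (exact p = 0.0117). Over the 30 share tests of the 3 steps, 4, 6 and 9 of 10 members passed after Benjamini-Hochberg adjustment. Shares within a family add up to the whole, so these tests depend on each other. From pachytene to division the Tubb4b share changed by -3.28 points and that of Tubb6 by 3.36, while the CPM of Tubb4b was higher in 9 of 10 libraries. Tuba1a, Tubb3 and Tubb5 gained share in elongating spermatids (exact p = 0.00781, 0.00195 and 0.00391).

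Alpha UMIs outnumbered beta UMIs in these 4 classes, by 5.07 ± 0.962 to 1 (SD, n = 10) in WT pachytene cells, 2.93 ± 0.539 in division, 1.77 ± 0.580 in round and 1.56 ± 0.227 in elongating cells (n = 11 each). Both are counts at 3′ ends of only the 10 genes listed. Erythroid-like cells, named from hemoglobin genes, also held much alpha tubulin RNA. WT had a ratio of 4.96 ± 0.657 (n = 2) there, with alpha UMIs at a mean of 4982 CPM against 4572 in pachytene cells. Mlh3 had 3.88 ± 0.503 (n = 4), with 3132 CPM against 4121. The part of germ cells or their RNA in this class was not tested.

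The CPM of these classes also carry spermatid RNA. The 13 elongating spermatid markers, among them the protamines Prm1 and Prm2, summed to 109,263 to 153,828 CPM in WT elongating spermatids, 21,999 to 47,447 in round, 7566 to 15,970 in division and 3679 to 8007 in pachytene cells, with all 13 detected. Tuba8 and Tubb6 values in WT pachytene and division cells stand beside these sums, and the part of free or mixed RNA in them was not tested.

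The 4 sorted libraries give each isotype without clustering, but from 1 library each, so they have no test and their intervals cover counting error only. They are shown in the plot of the 10 isotypes by sorted library.

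**Figure D3:**
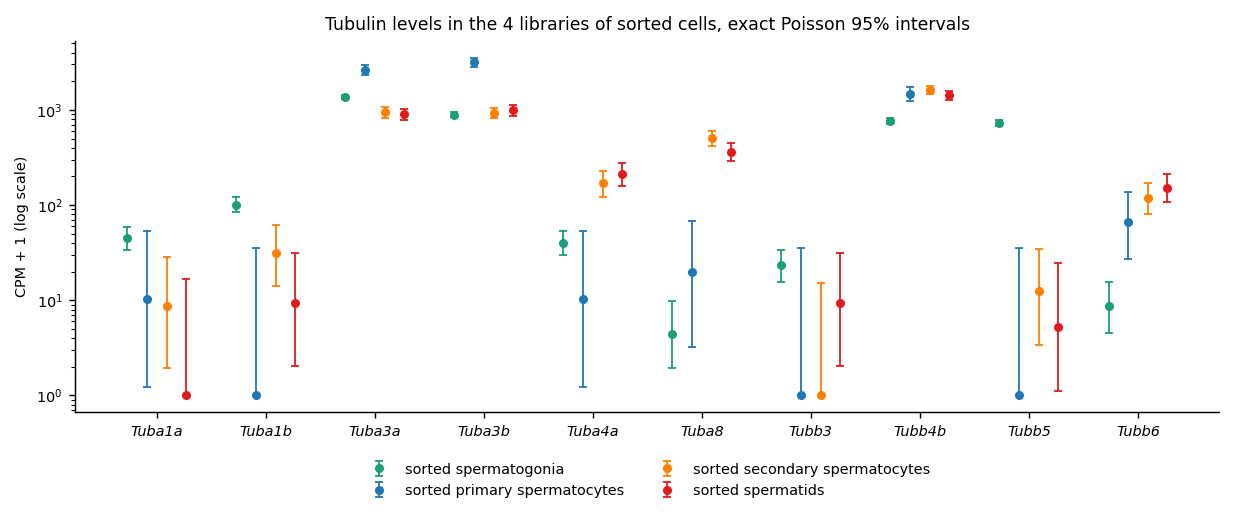
Level as CPM + 1 (vertical axis, logarithmic) of the 10 members (horizontal axis) in the 4 sorted libraries, with exact 95% Poisson intervals. Tubb5 is at 726 CPM in sorted spermatogonia, near Tubb4b at 763 CPM, and Tuba8 is at 3.42 CPM there against 500 and 363 CPM in the libraries labelled secondary spermatocytes and spermatids.

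Sorted spermatogonia held Tubb5 and Tubb4b in nearly equal measure. Tubb5 made up 47.8% of their 1775 beta UMIs (exact 95% binomial interval 45.4 to 50.1) and Tubb4b 50.3% (47.9 to 52.6). Tuba3a led their alpha UMIs with 56.0%, before Tuba3b with 36.4% and Tuba1b with 4.11%. Tuba8 had 4 UMIs there (3.42 CPM), and the elongating spermatid markers summed to 146 CPM with Prm1 and Prm2 at 0. The library labelled primary spermatocytes had Tuba3b at 3183 CPM, Tuba3a at 2633 and Tubb4b at 1475, and 2 UMIs of Tuba8. Tuba8 was 19.4% of alpha UMIs (16.5 to 22.6) in the library labelled secondary spermatocytes and 14.7% (11.9 to 17.8) in that labelled spermatids, and Tubb6 was 9.57% of beta UMIs in the latter. Elongating spermatid markers summed to 62,159 and 114,518 CPM in these libraries, so the first is no clean measure of secondary spermatocytes.

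Early germ cells and somatic cells used further isotypes. Tubb5 was high in spermatogonia and Sertoli cells and Tuba1a and Tubb3 in Sertoli cells, and all 3 were scarce in spermatocytes. They did not replace the isotypes of germ cells. Tuba3a, Tuba3b and Tubb4b had a UMI in 46.8, 43.4 and 27.7% of Mlh3 Sertoli cells. Tuba1a, Tubb3 and Tubb5 had one in 23.1, 16.8 and 19.7%. In WT and Cul4a Sertoli cells, too, each of the former was found in more cells than any of the latter. The part of germ cell RNA in these values was not tested. WT held too few of these cells, so all strains were fitted together with the library as a block, and the values come mostly from Mlh3 and Cul4a. They are shown by strain in the plot of Tuba1a, Tuba1b, Tubb3 and Tubb5.

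**Figure D4:**
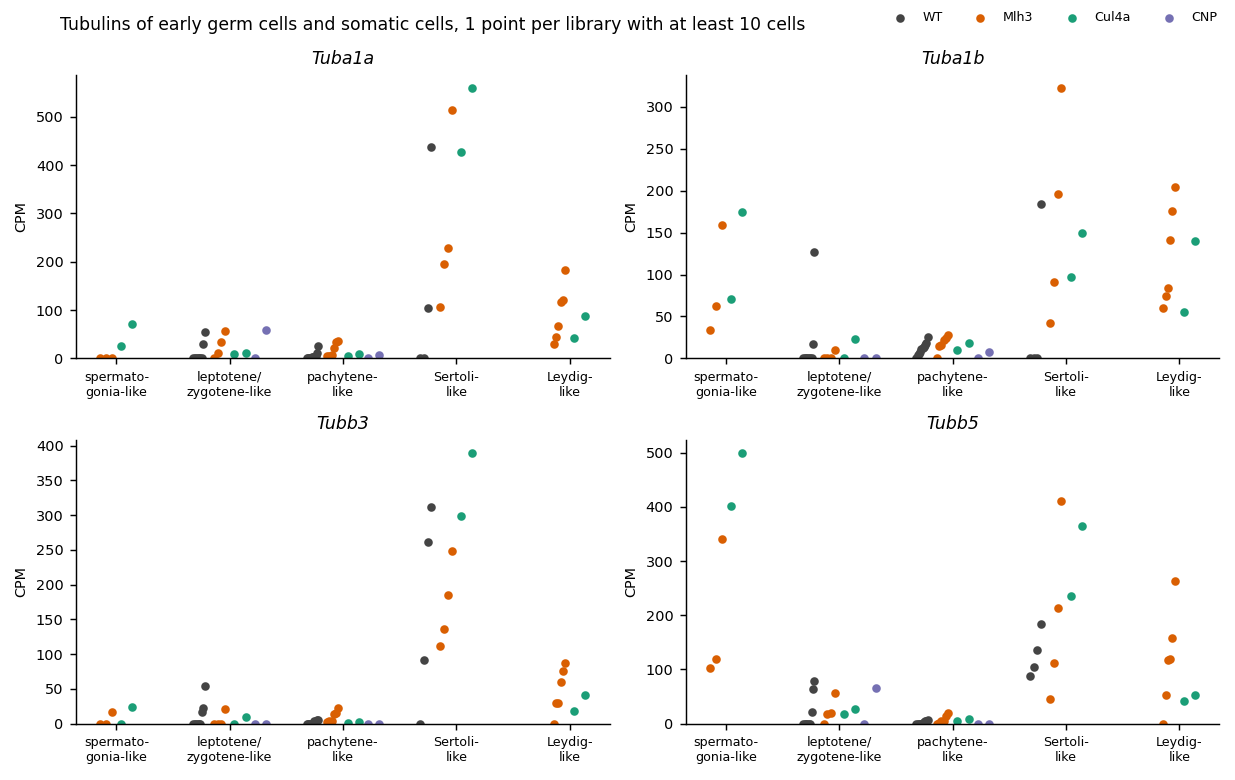
Levels of Tuba1a, Tuba1b, Tubb3 and Tubb5 in CPM (vertical axis) by class (horizontal axis), with 1 point per library in the colour of its strain. Tubb5 lies between 102 and 499 CPM in spermatogonia and Tubb3 between 112 and 389 CPM in Sertoli cells of the mutant strains, while pachytene values of both reach at most 22.3 CPM.

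In spermatogonia, Tubb5 stood at 402 and 499 CPM in the Cul4a libraries and at 102, 340 and 120 CPM in Mlh3 2, 5 and 6. The Cul4a libraries hold 18 and 15 such cells and these Mlh3 libraries 13, 14 and 13. The log2 fold change against pachytene cells was 6.67 (SE 0.40, edgeR adjusted p = 2.94e-60). Tuba1b stood at 70.9 and 174.6 CPM in Cul4a and at 34.1, 61.9 and 159.5 in Mlh3 (log2 3.31, SE 0.54, adjusted p = 1.37e-08). Tubb4b stood at 1488 and 998 CPM in Cul4a and at 817, 1546 and 1236 in Mlh3, above pachytene by a log2 of 1.25 (SE 0.18, adjusted p = 2.65e-11). These CPM values overlap the 693 to 1518 CPM of WT pachytene cells. The scalings that turn Tuba3a below act on every gene of a sum, so no firm size can be given for Tubb4b. Tuba4a was called from 5 UMIs (log2 3.02, SE 0.96, adjusted p = 0.00875), and its call was lost without Mlh3 2 (log2 2.57). Tuba3b was lower (log2 -0.68, SE 0.18, adjusted p = 0.00144). Tuba3a, at 885 to 1299 CPM, had a log2 of 0.10 that turned to -1.12 with factors over all genes and -0.48 with library totals. Of 10 members, 4 were higher and 1 lower, against 20.2% and 4.72% of the 22,121 genes tested. With DESeq2 9 were higher and none lower.

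Tuba8 differed by strain in the early classes. In spermatogonia it had 47.2 and 49.9 CPM in Cul4a and no UMI in the 3 Mlh3 libraries, and in leptotene/zygotene cells it ran from 22.2 to 127 CPM in 9 WT libraries, with no UMI in 4 Mlh3 libraries. Pooled leptotene/zygotene WT cells were at least 4.49-fold higher than the limit of 3 counts set by the pooled Mlh3 cells. The elongating spermatid markers moved the same way: they summed to 8032 and 11,787 CPM in spermatogonia of Cul4a against 155 to 306 in Mlh3, and to 7496 to 33,315 CPM in leptotene/zygotene cells of WT against 436 to 809 in Mlh3. Their part in these Tuba8 values was not tested.

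Leptotene/zygotene cells differed from pachytene cells in 4 members, all higher: Tubb5 (log2 2.57, SE 0.48, edgeR adjusted p = 1.58e-06), Tuba8 (log2 1.66, SE 0.39, adjusted p = 0.000182), Tuba4a (log2 1.60, SE 0.48, adjusted p = 0.00498) and Tuba1a (log2 1.42, SE 0.52, adjusted p = 0.0279). Over all genes 18.5% were higher and 4.49% lower. These calls depended on the clusters. At a coarser clustering 1 member was called, and Tuba1a, Tuba3b and Tubb5 turned to log2 values of -5.21, -1.74 and -4.50. Like Tuba8, Tuba4a had no UMI in Mlh3 leptotene/zygotene cells. Pooled WT, at 34.8 CPM, was at least 2.99-fold above the limit of 3 counts there. Tuba4a had none in CNP either, where that limit of 60.4 CPM lies above the WT value. The part of spermatid RNA in the Tuba4a values was not tested.

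Sertoli cells, which nurse the germ cells, had Tuba1a at 559 and 427 CPM in Cul4a, at 106, 195, 513 and 227 in Mlh3 2, 4, 5 and 6, and at 0, 0, 104 and 436 in 4 WT libraries with 6 UMIs in all. Tuba1a was above pachytene cells by a log2 of 5.90 (SE 0.27, edgeR adjusted p = 3.24e-101). Tubb3 had 389 and 299 CPM in Cul4a, 137, 112, 249 and 185 in Mlh3 and 0 to 311 in WT (log2 6.51, SE 0.33, adjusted p = 8.94e-84). Tubb5 had 365 and 235 CPM in Cul4a, 45.6, 112, 410 and 213 in Mlh3 and 87.3 to 184 in WT (log2 6.15, SE 0.32, adjusted p = 5.68e-81). In these 3 genes each Cul4a and Mlh3 Sertoli value lay above every pachytene value of any strain. Tuba1b (log2 3.77, SE 0.33), Tuba4a (3.42, SE 0.57) and Tubb6 (4.07, SE 0.77) were also called higher, and Tuba3a (-0.79, SE 0.15) and Tuba3b (-1.09, SE 0.15) lower. The count was 7 higher and 2 lower of 10, against 24.8% and 2.89% of all genes.

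Tuba8 was called higher in Sertoli cells as well (log2 4.12, SE 0.41, edgeR adjusted p = 4.63e-22), but it again had no UMI in Mlh3. It stood at 243 and 235 CPM in Cul4a, at 0, 0, 136 and 368 in WT and at 0 in the 4 Mlh3 libraries, where WT was at least 10.2-fold above the limit of 3 counts. Elongating spermatid markers summed to 29,067 to 60,307 CPM in WT and to 38,979 and 39,046 in Cul4a Sertoli cells, with 13 of 13 detected. In Mlh3 Sertoli cells they summed to 486 to 1080 CPM with 4 of 13 detected and Prm1, Prm2, Tnp1 and Tnp2 at 0. Tuba4a had 48.6 and 117 CPM in Cul4a on 13 UMIs, 1 UMI in the 4 Mlh3 libraries and 2 UMIs in WT, and Tubb6 had 5, 2 and 2 UMIs. The pooled ratio of WT to Mlh3 was 12.2 for Tuba4a (counting interval 0.637 to 722) and 6.11 for Tubb6 (0.443 to 84.4), and both intervals include 1. The part of spermatid RNA in these 3 genes was not tested.

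Leydig cells, which make testosterone, also had Tuba1a, Tuba1b and Tubb5 above pachytene cells. These genes had a UMI in 9.72, 15.3 and 5.56% of Cul4a Leydig cells. Tuba3a, Tuba3b and Tubb4b had one in more cells there, 36.1, 40.3 and 45.8%, and likewise in Mlh3. The part of germ cell RNA was not tested here either. Tuba1a stood at 87.8 and 41.4 CPM in Cul4a and from 29.8 to 182 (median 91.9) in the 6 Mlh3 libraries, with a log2 of 3.47 against pachytene (SE 0.40, edgeR adjusted p = 4.63e-17). Tuba1b stood at 140 and 55.3 CPM in Cul4a and from 60.7 to 204 in Mlh3 (log2 3.72, SE 0.32, adjusted p = 1.11e-29), and Tubb5 at 52.7 and 41.4 in Cul4a and from 0 to 263 in Mlh3 (log2 5.01, SE 0.40, adjusted p = 4.16e-35). Tuba4a ran from 0 to 96.8 CPM in Mlh3 (log2 5.11, SE 0.48, adjusted p = 6.19e-25). The count was 7 higher and 2 lower, against 28.9% and 4.75% of all genes (33.6% in either direction), and Tuba8, at 0 in all 6 Mlh3 libraries, was called on 5 UMIs of Cul4a (log2 2.33, SE 0.90, adjusted p = 0.0298), a call lost without Cul4a 1 or Cul4a 2. Mlh3 1 stood apart, with Tuba3a at 1961 CPM, Tuba3b at 2810 and Tubb4b at 1369 in its Leydig cells, against 96.8 to 497, 156 to 731 and 60.7 to 380 in the other 5.

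Sertoli against Leydig cells, tested directly, had more Tuba1a (log2 2.43, SE 0.35, edgeR adjusted p = 3.07e-10), Tubb3 (log2 2.86, SE 0.45, adjusted p = 1.30e-08) and Tubb5 (log2 1.14, SE 0.35, adjusted p = 0.0140), and less Tuba4a (log2 -1.69, SE 0.51, adjusted p = 0.0133). Without Mlh3 5, Tuba4a (log2 -1.06) and Tubb5 (log2 0.75) were no longer called, and Tubb5 also not without Cul4a 1 or Cul4a 2. Over all genes 2.62% were higher and 7.03% lower in Sertoli cells, 9.66% in either direction.

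For the 4 contrasts with pachytene cells, scaling moved the balance of calls over all genes. The share of calls that were higher was 81.1% for spermatogonia, 80.5% for leptotene/zygotene, 89.6% for Sertoli and 85.9% for Leydig cells, against 48.9, 39.5, 56.3 and 61.0% with factors over all genes and 66.4, 67.6, 68.7 and 57.4% with library totals. For Sertoli against Leydig cells it was 27.2%, or 61.9% with library totals. The median of all genes shifted by -0.30 to -0.53 with factors over all genes and by -0.13 to -0.55 with library totals in the 4 pachytene contrasts. In Sertoli cells Tuba1a, Tubb3 and Tubb5 stayed above 5 on the log2 scale under each.

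In Mlh3, pachytene cells had almost no UMI of Tuba8, Tuba4a and Tubb6, which in WT stood higher in spermatids than in pachytene cells. Tuba8 had 4 UMIs among the 8,303,901 of all Mlh3 pachytene cells, with 3 of 6 libraries at 0 and a highest value of 2.24 CPM, all below the lowest WT value of 7.67 CPM. The log2 fold change against WT was -4.28 (SE 0.50, edgeR adjusted p = 1.88e-08). Tuba4a ran from 0 to 2.94 CPM on 10 UMIs, against 0 to 36.6 in WT (log2 -2.98, SE 0.59, adjusted p = 0.000323). Tubb6 had 2 UMIs, both in Mlh3 3, and pooled WT was 17.4 times as high with a counting interval of 3.87 to 160 (log2 -3.36, SE 0.94, adjusted p = 0.00947), but the call was lost without Mlh3 6 (log2 -2.54). So 3 of 10 members were lower and none higher, against 7.99% and 8.27% of 16,491 genes, and with edgeR's own filter these 3 scarce genes were not tested. Tuba3a, Tuba3b and Tubb4b gave log2 values of -0.25 (SE 0.14), 0.02 (SE 0.16) and 0.05 (SE 0.19) and did not pass, and with other scalings Tuba3b and Tubb4b change sign.

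Beside these values, the elongating spermatid markers summed to 1167 to 1568 CPM in Mlh3 pachytene cells with Prm2 and Tnp1 among 6 markers at 0, against 3679 to 8007 CPM with all 13 detected in WT. The part of spermatid RNA in the WT values was not tested. Sertoli markers summed to 263 to 1862 CPM in Mlh3 against 110 to 261 in WT pachytene cells, and Leydig markers to 68.8 to 1878 against 0 to 41. Tuba1a stood at 5.89 to 35.8 CPM in Mlh3 against 0 to 25.7 in WT, so that the groups overlapped, and did not pass.

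Within the alpha family, Tuba8 made up 0.0172% of UMIs in Mlh3 and 0.308% in WT pachytene cells (exact permutation test over 6 and 10 libraries, two-sided, p = 0.00025, the smallest possible), and Tuba4a 0.0220% and 0.330% (exact permutation p = 0.00225). Tuba3b had a larger share in Mlh3 (56.8% against 52.5%, exact permutation p = 0.0110) and Tuba3a a smaller one (42.2% against 46.5%, exact permutation p = 0.0122). Tubb3 rose from 0.168% to 1.39% of beta UMIs (exact permutation p = 0.00799). After adjustment over the 10 tests 5 members passed, and shares within a family depend on each other here too. Without Mlh3 1 only 2 passed, both lower in Mlh3, so the larger shares of Tuba3b and Tubb3 did not pass. These tests count Mlh3 2 and Mlh3 3 as separate libraries and were not repeated with them merged. The background differs between these strains too, and Tuba3a and Tuba3b are nearly identical.

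Summed over every barcode, fewer cells of a type and less RNA per cell cannot be told apart. Tuba8 had 5 UMIs among 15,751,953 in the Mlh3 libraries against 172 to 318 CPM in WT (log2 -9.54, SE 0.32, edgeR adjusted p = 6.41e-21). Tuba4a (2.37 to 19.8 CPM against 88.1 to 139) and Tubb6 (0.711 to 5.06 against 39.2 to 93.0) were lower without overlap. Tuba1a had 22.7 to 143 CPM in Mlh3 against 2.80 to 15.2 in WT (log2 3.00, SE 0.36, adjusted p = 4.29e-08), Tuba1b 22.7 to 158 against 4.52 to 21.7 and Tubb5 20.3 to 120 against 5.43 to 20.6, and Tubb3 was higher as well (log2 1.98, SE 0.36, adjusted p = 2.99e-05). With Tubb4b (log2 -0.49, lost without Mlh3 2, 3, 4, 5 or CNP 2, and -0.36 and not called with Mlh3 2 and 3 merged), 4 members were higher and 4 lower, against 38.4% and 23.3% of 23,386 genes (61.7% in either direction). Sertoli markers summed to 1424 to 6860 CPM in whole Mlh3 libraries against 266 to 841 in WT, Leydig markers to 1336 to 9180 against 0 to 390, and elongating spermatid markers to 667 to 1353 against 32,652 to 60,413.

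In Cul4a and CNP germ cells, Tuba3a and Tuba3b were lower at each of the 3 steps in all 4 libraries, and Tuba8 and Tuba4a higher in round than in division and in elongating than in round cells in all 4. From pachytene to division, Tuba8 was lower in all 4 (means 20.9 and 15.3 CPM in Cul4a, 22.5 and 12.1 in CNP) and Tubb6 lower in both Cul4a libraries (5.20 and 3.34), whereas WT was higher, and this difference between strains was not tested. The plot of 4 isotypes by strain shows pachytene cells and spermatids.

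**Figure D5:**
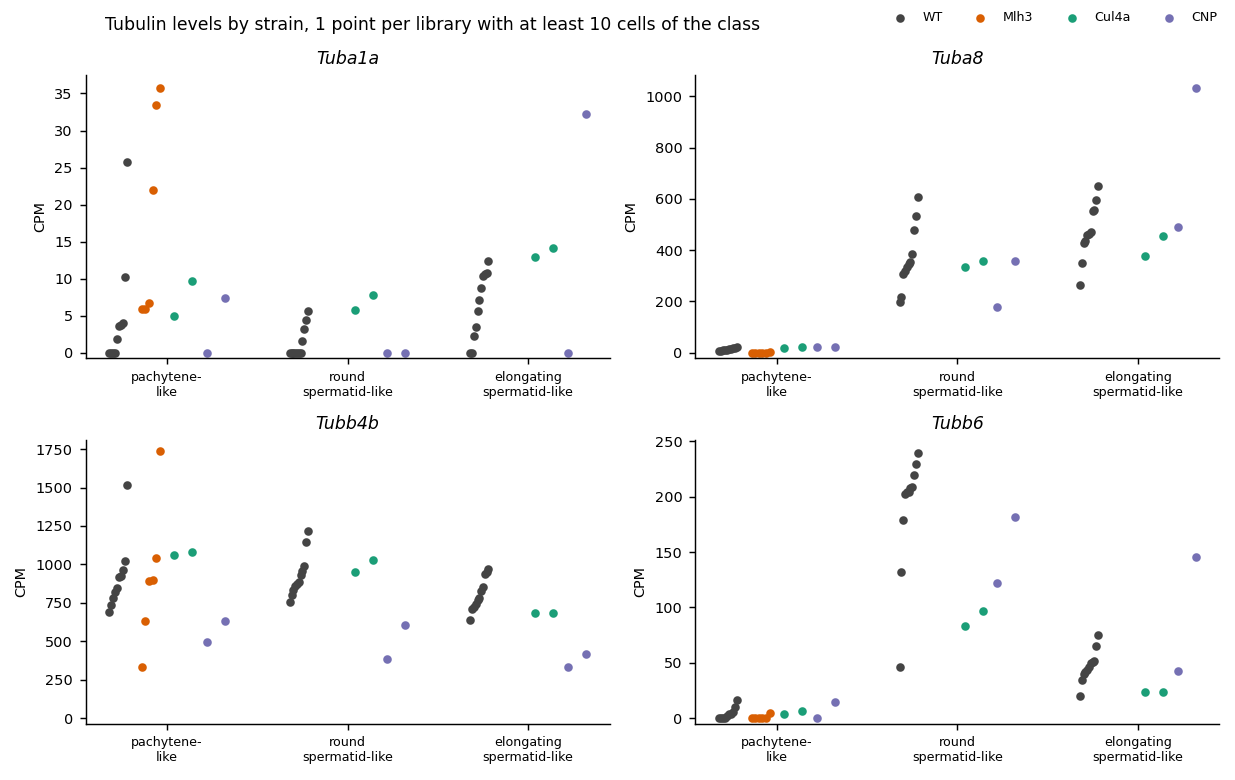
Levels of Tuba1a, Tuba8, Tubb4b and Tubb6 in CPM (vertical axis) in pachytene, round and elongating cells (horizontal axis), with 1 point per library in the colour of its strain. CNP libraries have Tubb4b between 331 and 633 CPM, below all WT libraries in each class, and Mlh3 has Tuba8 at 2.24 CPM or less.

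In CNP, Tubb4b was low in pachytene, division, round and elongating cells. It stood at 493.3 and 633 CPM in pachytene cells, 533 and 413 in division cells, 385 and 608 in round and 331 and 420 in elongating spermatids, each below the lowest WT library of that class. In leptotene/zygotene cells it stood at 592 and 522 CPM against 455 to 1716 in WT, within the WT range. The log2 fold change was -1.19 in elongating spermatids (SE 0.27, edgeR adjusted p = 0.0391), where 0.0407% of 14,757 genes were higher and 0.149% lower and no other member passed. It was -1.0 in round spermatids (SE 0.25, adjusted p = 0.177), -0.75 in pachytene cells (SE 0.33, adjusted p = 0.976) and -1.31 in whole libraries (SE 0.32, adjusted p = 0.0736), none of which passed. The call in elongating spermatids was lost without CNP 1, CNP 2, Cul4a 1 or Cul4a 2, with log2 values of -1.28 to -1.01. It was also lost with no filter on low counts, at the coarser clustering, with tubulins kept in the clustering, with the UMI filter alone, with the replicate block and with library totals, with log2 values of -1.46 to -1.08 over all 14 other settings and a highest edgeR adjusted p of 0.339. Alpha UMIs per beta UMI were 8.05 in CNP pachytene cells against 5.07 in WT, and 2.94 against 1.56 in elongating spermatids.

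By edgeR no member passed in CNP pachytene cells, round spermatids or whole libraries, where 0.285, 0.123 and 0.428% of all genes did (0.0243% higher in pachytene and 0.00585% higher in round cells). At an unadjusted p under 0.05 there were 1, 1 and 3 members, beside 726 of 16,491, 776 of 17,106 and 1911 of 23,386 genes. DESeq2 called 0, 1 and 1 members, beside 89, 64 and 575 genes. Tuba8 stood at 491 and 1033 CPM in CNP elongating spermatids, above the WT range of 264 to 650 in CNP 2 only. The CNP libraries are shallow, with 1,830,350 UMIs in both together.

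In Cul4a, Tubb6 was low in spermatids. It stood at 82.9 and 96.4 CPM in round spermatids, below all WT libraries but WT 1 (45.7 CPM), with a log2 of -1.03 (SE 0.29, edgeR adjusted p = 0.0507) that did not pass. In elongating spermatids it stood at 23.5 and 23.5 CPM against 20.3 to 75.4 in WT (log2 -0.92, SE 0.28, adjusted p = 0.0498), and Tuba3a at 148 and 130 CPM against 189 to 345 (log2 -0.80, SE 0.24, adjusted p = 0.0370). Both calls were lost without either Cul4a library. Over 14 other settings the Tubb6 call was lost in 10, among them DESeq2, RLE, the coarser clustering and tubulins kept, with log2 values of -1.05 to -0.30. That of Tuba3a was lost in 3 (no filter on low counts, factors over all genes and the replicate block), with values of -1.03 to -0.56. Of all genes, 2.14% were higher and 2.66% lower. For this contrast 44.6% of all calls were higher, or 79.9% with factors over all genes and 23.9% with library totals. Tuba1a in round spermatids, at 5.79 and 7.77 CPM against a WT highest of 5.67, did not pass (log2 2.02, SE 0.59, adjusted p = 0.0521).

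By edgeR no member passed in Cul4a pachytene cells, round spermatids or whole libraries, where 13.3, 2.37 and 4.52% of all genes did (9.34% higher and 3.93% lower in pachytene, 3.97% higher in whole libraries). At an unadjusted p under 0.05 there were 2 members in each, beside 4403 of 16,491, 2661 of 17,106 and 4410 of 23,386 genes. DESeq2 called 0, 1 and 1 members, beside 1654, 354 and 960 genes. Tuba3b stood at 2988 and 3239 CPM in Cul4a pachytene cells, the second above the highest WT value of 3196.

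The other tubulin genes were minor in WT germ cells but for Tuba1c. Tuba1c, an alpha isotype close to Tuba1a and Tuba1b, had means of 4.12, 6.07, 33.4 and 108.5 CPM in pachytene, division, round and elongating cells, and rose at the last 2 steps (log2 2.54, SE 0.25, edgeR adjusted p = 3.45e-23, and 1.89, SE 0.15, adjusted p = 2.78e-34). Tubb2a rose at the first 2 steps (means 0.57, 4.80 and 12.5 CPM, then 16.2). Tubal3 had means of 0, 6.54, 1.5 and 0.97 CPM and was called higher in division than in pachytene cells (log2 3.68). Gamma tubulin Tubg1, which nucleates microtubules at centrosomes, rose at the last 2 steps (means 6.95, 21.2 and 30.6 CPM from division on). Tubd1, the delta tubulin of centrioles, fell from 51.0 to 29.8 and then 6.54 CPM (log2 -0.63, SE 0.18, adjusted p = 0.00153, and -2.05, SE 0.26, adjusted p = 2.89e-14). Tube1, Tubg2, Tubb4a and Tubb2b had WT class means of at most 6.32 CPM and none was called at these steps, where Tubb2b had too few UMIs to be tested. Of the 8 tested, 2 were higher and 1 lower at the first step, 3 and 1 at the second and 2 and 0 at the third. The pseudogene Tubb4b-ps1, chosen after its values were seen, had means of 16.0, 40.1, 139 and 113 CPM, and its reads can be those of Tubb4b.

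Genes that act on tubulin were counted in 4 lists. Over all genes, 19.3% were higher and 21.9% lower at division against pachytene, 24.2 and 20.5% at round against division and 13.8 and 20.8% at elongating against round, with median log2 changes of -0.02, 0.03 and -0.12. Of 22 folding genes (chaperonin CCT subunits, prefoldins and tubulin cofactors), 5 were higher and 12 lower in division than in pachytene, 6 and 13 in round than in division, and 3 and 14 in elongating than in round cells, with median log2 changes of -0.32, -0.41 and -0.61. Among them the prefoldin subunits Pfdn4 and Pfdn2 fell first (log2 -2.34, SE 0.19, and -2.0, SE 0.18), the chaperonin subunit Cct8 next (-1.14, SE 0.11) and Cct4 last (-1.09, SE 0.10). Tbcc (0.95, SE 0.12) and Arl2 (2.16, SE 0.31), which act in releasing the tubulin pair, rose in division cells, and Cct2 (0.63, SE 0.08) in round and Pfdn5 (0.91, SE 0.08) in elongating spermatids.

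Of the 28 tested genes for tubulin modification, 13 were higher and 5 lower at the first step, 11 and 3 at the second, and 5 and 9 at the third, with medians of 0.45, 0.40 and -0.25. Ttll7, a polyglutamylase of beta tubulin, rose by 4.00 (SE 0.18) in division and 1.01 (SE 0.09) in round cells and fell by 1.29 (SE 0.10) in elongating cells on the log2 scale. Glycylases rose in round spermatids, Ttll8 by 2.31 (SE 0.13) and Ttll10 by 1.97 (SE 0.12), while Ttll3 rose by 3.76 (SE 0.29) in division and fell by 2.18 (SE 0.18) in elongating cells. The deacetylase Sirt2 fell by 1.28 (SE 0.13) in division cells and rose by 1.21 (SE 0.14) in elongating spermatids, and Nicn1, a subunit of the polyglutamylase complex, fell by 1.02 (SE 0.13) and then 2.18 (SE 0.19).

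Of 29 tested genes for microtubule ends, severing and binding, 8 rose and 8 fell at the first step, 11 and 8 at the second and 10 and 7 at the third, with medians of -0.09, 0.21 and 0.20. Clip1, a plus-end protein, rose by 2.60 (SE 0.14) and 1.94 (SE 0.08) and then fell by 1.33 (SE 0.08). Tpx2 and Tacc3, proteins of the spindle, fell by 2.69 (SE 0.20) and 1.69 (SE 0.16) in round spermatids, and Clasp1 rose by 1.69 (SE 0.14) in elongating ones. The 5 tektins, filament proteins of flagellar doublets, had 4 higher and 1 lower, then 3 and 0, then 0 and 4. Tekt2 rose by 1.89 (SE 0.10) and 0.83 (SE 0.08) and fell by 1.91 (SE 0.09), and Tekt5 fell by 0.66 (SE 0.22) and rose by 3.01 (SE 0.14).

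In Mlh3 pachytene cells, where 8.27% of all genes were higher and 7.99% lower, 6 of 26 tested modification genes were lower and 2 higher, among them Ttll7 (log2 -4.03, SE 0.54, edgeR adjusted p = 3.54e-07), Ttll10 (-4.91, SE 0.71) and Ttll8 (-3.50, SE 0.75), and 4 of 5 tektins were lower, such as Tekt4 (-1.09, SE 0.22). Of 28 genes for ends and severing 7 were higher and none lower, such as Ckap5 (1.41, SE 0.23), and of 22 folding genes 1 was higher, Tbcel (0.71, SE 0.21). In spermatogonia, where 20.2% of all genes were higher and 4.72% lower, 10 of 22 folding genes were higher and 2 lower than in pachytene cells, such as Cct8 (1.71, SE 0.21) and Cct6b (-2.70, SE 0.42), and of 29 modification genes 5 were higher, such as the deacetylase Hdac6 (5.92, SE 0.52), and 4 lower. In Sertoli cells, with 24.8% of all genes higher and 2.89% lower, 15 of 29 genes for ends and severing were higher and 2 lower, among them Map1b (3.47, SE 0.25), Map7 (2.25, SE 0.23) and the plus-end protein Mapre1 (1.93, SE 0.21), and Hdac6 was higher by 5.88 (SE 0.42).

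The genes whose levels went most closely with a member were taken over 58 sums of WT libraries and classes, by Pearson correlation of log2(CPM + 20) among 6416 genes. These are descriptions, since sums of 1 class share their cells and depth. Tuba3a went with Hspa2, a heat shock protein of spermatocytes (r = 0.924), Tuba3b (0.923) and Rsph1, a radial spoke protein (0.922). Tuba3b went with Hsp90aa1 (0.940). Tuba8 went with Prss52 (0.908), 4930579O11Rik (0.894) and Slfnl1 (0.890), Tuba4a with Isg20l2 (0.911), Fam71f1 (0.906) and 4932418E24Rik (0.893), and Tubb6 with Acot10 (0.910), Sgms2 (0.897) and RP24-319M18.1 (0.888). Tubb4b reached at most 0.652, with Morf4l1. Among the members themselves, Tuba3a and Tuba8 ran opposite (r = -0.857), Tuba4a and Tuba8 together (0.827), and Tuba8 and Tubb6 less so (0.703).

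The promoters of the genes that fell together share short runs. In the 250 bases before their RefSeq starts (GRCm38.p6), Tuba3a and Tuba3b share 3 runs of 15 or more bases. The longest, of 33 bases, is not printed, and the other 2, of 17 bases, each hold the letters CCAAT, shown in capitals. The first of these lies at chr6:125286171-125286187 on the minus strand for Tuba3a and at chr6:145615870-145615886 on the plus strand for Tuba3b, the second at chr6:125286140-125286156 and chr6:145615901-145615917.
First run: acatCCAATcagaaagt
Second run: ttgagccacatCCAATc
Letters were searched on both strands of the 300-base RefSeq promoters of 9 members, Tubb6 left out. CCAAT occurs in 34.5% of 27,025 promoters, with 3 matches in Tuba3a, 2 in Tuba3b, 5 in Tubb4b, 2 in Tubb5 and 1 each in Tuba1a and Tubb3. TGACG occurs in 17.9%, with 1 match in Tuba4a and 2 in Tubb4b. GGGCGG occurs in 32.9%, with 2 matches each in Tuba1b, Tuba4a and Tubb3 and 1 each in Tuba1a, Tuba3a and Tubb4b. TATAAA occurs in 13.0% and TGACGTCA in 1.62%, and neither has a match in the 9 promoters searched. A match is not evidence that a factor binds there.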

How the data were processed

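For each of the 25 libraries the authors deposited raw UMI counts (genes by cell barcodes), made with bcl2fastq, the Drop-seq pipeline and STAR 2.5.3a against mm10 (GRCm38) with annotation release 76. Counts were taken as deposited. Labels of 1 group are taken as separate samples, and where nothing states separate animals p-values measure only the spread between libraries. The edgeR fit shares its estimate of that spread between genes. Its very small p-values therefore do not rest on the spread of the named gene alone.

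Barcodes with at least 200 UMIs and 50 genes were kept, then those less than 1 SD below the mean depth and with scaled mt-Rnr2 of at most 2, which left 36,619 of 48,642 (75.3%). The filters took 8424 of 11,210 barcodes in Mlh3 and 1919 of 4381 in CNP, against 274 of 5736 in Cul4a and 1071 of 26,123 in WT. Class results of Mlh3 and CNP therefore rest on the part of their barcodes that stayed. Doublets were not called. Cells were clustered with scanpy 1.11.5 without tubulin genes (40 components, 20 neighbours, Leiden resolution 2), giving 45 clusters. A cluster was named from at least 3 markers at 1.5-fold and at least 50 genes at 2-fold. The first threshold was lowered from 2-fold after these clusters had been seen. Tuba8 was among the leading genes of 1 elongating cluster and Tubb5 among those of the spermatogonia cluster. The other threshold was taken over from an earlier analysis that set it after seeing its clusters. Too few markers left 4 clusters unnamed (11,374 cells) and too few leading genes 5 (7205 cells). The latter took 51.8% of the kept cells in CNP, 31.3% in Cul4a, 16.7% in WT and 1.62% in Mlh3. The former took 44.5% of the kept cells in WT, 8.33% in CNP, 0.183% in Cul4a and none in Mlh3. Named clusters numbered 35 and held 18,039 cells.

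Counts were summed per library and class (at least 10 cells, genes with at least 5 counts) and tested with edgeR 4.0.16 (quasi-likelihood, Benjamini-Hochberg, adjusted p of 0.05). TMM factors came from genes at 50 CPM or more in each pool, chosen after factors over all genes gave false calls in simulated data. WT steps used WT libraries, early and somatic classes all strains with the library as a block, and strains all whole-testis groups with cells of the class. DESeq2 1.42.0 and other filters, scalings, clusterings and left-out libraries were tried. Shares of isotypes were tested by exact permutation over libraries with at least 20 UMIs of the family. Intervals and limits of 3 counts cover counting error only. In simulated data with 200 changed genes the test recovered 80% of 2-fold and all 4-fold changes (log2 of 1 and 2) for round against division in WT (17,718 genes), 65 and 99% for Mlh3 pachytene cells (16,491 genes), and 11 and 49% for CNP elongating spermatids (14,757 genes). The rates were 16 and 48% for Sertoli against pachytene cells, 28 and 96% for Cul4a round spermatids and 56 and 97% for whole Mlh3 libraries. Changed genes were drawn from the better counted ones, so these rates do not cover scarce members.

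All 10 members are named, with the genes of the pathway lists that changed most in each direction. Members and lists were chosen with earlier results of these data known. Another mutant strain is not analysed here.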

Additional observations from a re-analysis of the deposited data

Results flagged for a closer look

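Of 75 groups of libraries tested for a member, 20 had a library far from the others. Chance gives about 1 in 20 only for normally spread values, and 11 of the 20 rest on 1 to 3 UMIs, 7 of these with all other libraries of the group at 0, so the count of such libraries is no measure against chance. Mlh3 1, with 386 Leydig cells, had Tuba3a at 1961 CPM, Tuba3b at 2810 and Tubb4b at 1369 in that class, Tuba3b at 4232 CPM in pachytene cells and Tuba1b at 158 CPM in its whole library. Mlh3 6 had Tuba3b at 1392 CPM in Sertoli cells. WT 3, sequenced on a MiSeq like Mlh3 1, had Tubb4b at 1518 CPM in pachytene and 1716 in leptotene/zygotene cells. In whole WT libraries Tubb4b was at 1116 CPM ± 181 (SD, n = 3) in those from MiSeq or enzymatic dissociation and at 844 ± 73.9 (n = 8) in the others, and the part of platform in these values was not tested. WT 7 had Tuba1a at 25.7 CPM in pachytene cells from 7 UMIs.

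The others rest on 1 to 3 UMIs each. In leptotene/zygotene cells these were Tuba1b in WT 3 (127 CPM) and Mlh3 5 (10.3), Tuba4a in WT 5 (164) and Tubb3 in WT 5 (54.6) and Mlh3 5 (20.6). In Sertoli cells they were Tuba1b and Tubb6 in WT 6 (184 CPM each), Tuba4a in Mlh3 2 (15.2) and Tubb6 in Mlh3 5 (29.3). In pachytene cells they were Tuba8 (2.24 CPM) and Tubb6 (4.47) in Mlh3 3.

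At the step from pachytene to division, 3 mean differences ran against WT, where Tuba8 went from 13.7 to 31.7 CPM and Tubb6 from 4.07 to 45.7 and both were higher in 10 of 10 libraries. Tuba8 differed by -5.62 CPM in Cul4a (20.9 to 15.3) and by -10.4 in CNP (22.5 to 12.1), and Tubb6 by -1.86 in Cul4a (5.20 to 3.34), in both libraries of each strain. These differences between strains were not tested, and Cul4a division cells lay in a cluster with 1 WT cell.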

How the results depend on the processing

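Of the single-gene results of members under the alternatives, 4165 kept their side of the threshold, 106 lost it, 122 gained it and 12 reversed, where only results called in at least 1 of both fits count as reversed and uncalled ones may also change sign. Causes were not tested. Factors over all genes and library totals were added after seeing the data. Tubb4b reversed with library totals at round against division (-0.23) and elongating against round (-0.21), Tuba8 in Leydig cells with at least 50 cells (-1.07), and Tuba3a in spermatogonia with factors over all genes (-1.12) and totals (-0.48). In leptotene/zygotene cells a coarser clustering reversed Tuba1a (-5.21), Tuba3b (-1.74) and Tubb5 (-4.50), Tuba3b also with tubulins kept in the clustering (-1.80), the UMI filter alone (-1.82) and factors over all genes (-0.53), and Tubb4b with the last (-0.56).

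Counts of members called moved by over 1.5 times as follows. Elongating against round went from 10 to 6 with edgeR's own filter, division against pachytene from 5 to 3 at the coarser clustering, spermatogonia from 5 to 9 with DESeq2, and Sertoli against Leydig from 4 to 7 in mechanically dissociated HiSeq libraries. Leptotene/zygotene went from 4 to 2 with 50 cells per class, 1 at the coarser clustering and 7 with the UMI filter alone. Mlh3 pachytene went from 3 to 0 with edgeR's own filter, and its shares from 5 to 1 with 50 cells. Cul4a pachytene went from 0 to 2 in HiSeq libraries or with 50 cells. Cul4a round went from 0 to 4 with tubulins kept, to 2 in HiSeq libraries, with the UMI filter alone or with platform as covariate, and to 1 with DESeq2, 50 cells, the coarser clustering or factors over all genes. CNP round went from 0 to 1 with DESeq2, HiSeq libraries, the coarser clustering, tubulins kept or the UMI filter alone. Cul4a elongating went from 2 to 1 with DESeq2, RLE, the coarser clustering, tubulins kept, the UMI filter alone, platform, factors over all genes (neither Tubb6 nor Tuba3a) or a dispersion trend, and to 0 without a filter on counts or with the block. CNP elongating went from 1 to 0 without that filter, at the coarser clustering, with tubulins kept, the UMI filter alone, the replicate block or library totals. Whole libraries went from 0 to 1 for Cul4a with DESeq2, HiSeq libraries, factors over all genes or totals, and for CNP with DESeq2, HiSeq libraries or platform.

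Leaving out 1 library at a time gave 0 to 2 members for Cul4a elongating, 0 for CNP elongating in every case, 0 to 1 for whole CNP libraries, 2 to 6 for Sertoli against Leydig and 2 to 6 for the Mlh3 shares. Where 1 Cul4a or CNP library was left, it is assumed to vary like the other groups. With Mlh3 2 and Mlh3 3, which share an age, merged, the edgeR count for Mlh3 pachytene stayed at 3 and that for whole Mlh3 libraries went from 8 to 7 (Tubb4b, -0.36). Strain comparisons left out mutant libraries only, and early and somatic classes only the 8 Mlh3 and Cul4a libraries.

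Replicate numbers shared between strains did not pair the libraries: of 16 pairs 2 had deviations correlated over 0.1 (range -0.27 to 0.30). With the replicate block Cul4a elongating and CNP elongating had 0 members and whole CNP libraries 2. Counts of genes called under the block were 935 against 2681 for Mlh3 pachytene, 178 against 2189, 11 against 406, 179 against 708 and 155 against 1056 for Cul4a pachytene, round, elongating and whole, and 24 against 47, 0 against 21, 100 against 28 and 614 against 100 for CNP.

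Other counts of genes called moved too. They were 4644 for 7304 at division against pachytene with edgeR's own filter, 7918 or 1568 for 5088 in leptotene/zygotene cells with DESeq2 or the coarser clustering, and 3868 for 6128 (Sertoli) and 3802 for 7442 (Leydig) with 50 cells. The 406 of Cul4a round became 197 (dispersion trend) to 2691 (HiSeq), the 708 of Cul4a elongating 458 (no filter) and 1616 (HiSeq), and the 1056 of whole Cul4a libraries 431 (trend) and 2910 (HiSeq). In CNP, 47 became 73 (no filter) and 89 (DESeq2) in pachytene, 21 became 35 (platform) to 112 (HiSeq) in round, 28 became 5 (no filter) to 71 (HiSeq) in elongating cells, and 100 became 260 (HiSeq) and 575 (DESeq2) in whole libraries.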
